A study of Rattus norvegicus with 9 samples.

Results

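The transcripts described here are those of 9 genes of mast cells and basophils, taken from the 41801 genes listed in the count tables. They are the serine protease genes Prss34, Prss29, Mcpt8 and Cma1, the carboxypeptidase gene Cpa3, the high-affinity IgE receptor genes Fcer1a and Ms4a2, the histidine decarboxylase gene Hdc and the cytokine gene Il4. The genes were chosen by symbol, and with the knowledge that Prss34 and Prss29 differed strongly between libraries collected at 4 h and all others. Each difference between 4 h and other libraries below is therefore a description of the values that chose the genes, and no test of it is given. The labels name no sequencing or dissociation batch, so hour and any such batch cannot be told apart.

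Tissue of the proximal tibial osteotomy site of Sprague-Dawley rats aged 6 to 8 weeks was dissociated and measured by single-cell RNA sequencing, with 1 library per condition. All animals carried a circular tibial osteotomy of 3 mm and a full-thickness skin wound of 4 mm on the foot of the same side. The TO group received no shock waves, and its libraries were TO 2d 0h, taken before any session, TO 2d 4h, TO 4d 4h and TO 4d 24h, named by the postoperative day of a shock wave session and the hours from that session to collection, with the same day and hours given for TO without a session. A 24 h library was therefore collected 1 day later than the day in its name. The TOE group received radial extracorporeal shock waves (rESWT) at the osteotomy on days 2 and 4, and its libraries were TOE 2d 4h, TOE 2d 24h, TOE 4d 4h and TOE 4d 24h. The TOE 2d libraries were collected before the session of day 4, so they followed 1 session and the TOE 4d libraries followed 2. In TOE, day and number of sessions therefore cannot be told apart. The remaining condition (TO 2d 24h) is not analysed here, the series names 9 rats for its 9 samples without tying a rat to a library, and 0 h was sampled only in TO, so the 4 libraries set against the 4 h collections mix 1 library at 0 h with 3 at 24 h.

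Mast cells and basophils both store proteases and histamine in granules and release them when IgE bound to its receptor is cross-linked by antigen. Basophils mature in the bone marrow and circulate, whereas mast cells finish their development within tissues and depend on the receptor Kit. Tryptases and chymases are classical mast cell products, while Mcpt8 and Prss34 are known in rodents as basophil proteases. Both cell types are rare in marrow, so their granule transcripts come from few cells.

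After filtering, 110487 cells were kept, with 95954800 to 144146202 UMIs (unique molecular identifiers, which count captured transcripts) per library before the filter. Between 40 and 110 cell barcodes were shared by any 2 libraries. The 110 were shared by TOE 2d 4h and TOE 4d 4h, both collected at 4 h, and no other pair shared more than 73. The reason for this was not tested. Haemoglobin genes took 0.750% to 1.88% of UMIs in the 4 h libraries and 0.0160% to 1.11% in the others, and mitochondrial genes took 2.16% to 2.98% and 2.78% to 3.96%. What part these shifts have in the 4 h values below was not tested.

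Transcripts of the 9 genes were concentrated in a single small cluster. Clustering was run without the 9 genes, and 811 cells, 0.494% to 1.12% of each library, formed a cluster whose leading genes were Prg2, Mcpt10, Prss29, Prss34, Cma1, Cpa3, Mcpt8, Mcpt1l1, Epx and LOC100363914. It raised 16 of the 20 measured markers of mast cells and basophils, none of them among the 9 genes. Its leading genes also held the eosinophil granule genes Prg2 and Epx, so it is called here the granule protease cluster and not a cell type. The share of all UMIs of a gene that fell in this cluster was 92.7% for Cpa3, 91.5% for Fcer1a, 90.8% for Cma1, 89.5% for Prss34 and 88.8% for Prss29. It was 83.2% for Mcpt8, 81.3% for Hdc, 69.9% for Ms4a2 and 36.6% for Il4. For Prss34 the share ranged from 84.0% to 95.4% over the 8 libraries.

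Clustered again without the 9 genes, the granule protease cluster was divided into 3 sets of cells. A group of 85 cells raised 6 of 7 mast cell genes that are not among the 9 and is called mast-cell-like, and 59 cells raised 5 of 8 eosinophil markers and are called eosinophil-like. The remaining 667 cells, taken as a pool, raised 6 of 8 listed basophil genes, of which Cd200r1l, Il3ra and Cd7 are not among the 9. Their single sub-clusters raised between 2 and 6 of the 8, so the pool is given no cell type name and is called the remaining cells. Within it, 251 cells lay in sub-clusters led by haemoglobin, neutrophil or monocyte genes, or, for 86 of them, by Flt3, Prune2 and Lama4 with Prss34 and Cd7 as the only basophil genes raised. These 251 made up 54.0% to 74.6% of the remaining cells in the 4 h libraries and 9.68% to 28.6% in the others. The other 416 lay in sub-clusters that raised 3 to 6 of the 8, among them 29 cells with a median of only 997 UMIs. Of the 251, the sub-cluster of 123 cells led by haemoglobin genes also raised 6 of the 8. That of 24 cells led by neutrophil genes raised 4, and that of 18 led by monocyte genes raised 3. The 8 hold Prss34, Mcpt8 and Il4, and Prss34 was raised in each of these sub-clusters, so these counts draw partly on genes compared below. Outside the 9, the 29 cells and the 18 raised only Cd7, and the 24 raised Il3ra and Cd7. The 123 led by haemoglobin genes raised Cd200r1l, Il3ra and Cd7. The largest sub-cluster of the 416 (171 cells) raised these and Cd69. The median depth over the remaining cells was 2198.5 to 3384 UMIs in the 4 h libraries and 6391 to 9887 UMIs in the others. Levels are therefore given as CPM, which are UMIs of a gene per 1000000 UMIs of the same cells. The part of this depth and of these sub-clusters in the 4 h values was not tested, and the 2 sets of sub-clusters are given separately below.

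Each gene had its own distribution over these cells. Pooled over libraries, Prss34 stood at 6970 CPM in the remaining cells (95% exact Poisson interval 6903 to 7038), at 24.5 CPM in mast-cell-like cells (12 UMIs) and at 12.0 CPM in eosinophil-like cells (7 UMIs). Prss29 stood at 12404 CPM in the remaining cells, at 6.12 CPM in mast-cell-like cells (3 UMIs) and at 42.7 CPM in eosinophil-like cells (25 UMIs). Cpa3, which encodes the carboxypeptidase stored with chymase in mast cell granules, was lower in the remaining cells (686 CPM) than in mast-cell-like cells (13626 CPM). Cma1, a chymase gene, stood at 2706 and 16350 CPM in those groups. The 85 mast-cell-like cells thus held 57.8% of all Cpa3 UMIs and 30.4% of all Cma1 UMIs, but 0.0263% of Prss34 UMIs. Mcpt8 was present in both groups, at 37857 CPM in the remaining and 13820 CPM in mast-cell-like cells. Poisson intervals cover counting error only, and since the cells were grouped by their expression, none of these differences was tested.

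**Figure D1:**
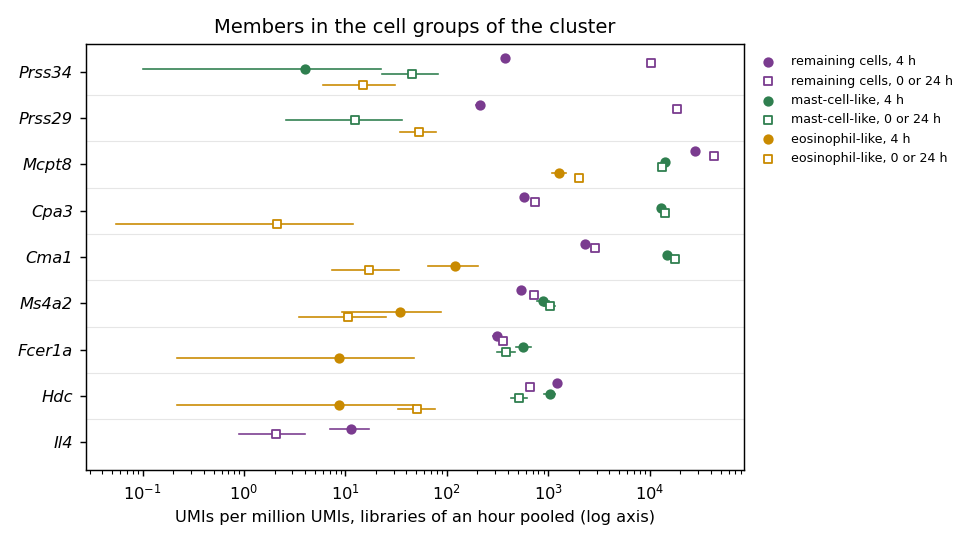
Levels of the 9 genes in the 3 sets of cells of the granule protease cluster, in CPM on a log axis. Purple stands for the remaining, green for mast-cell-like and yellow for eosinophil-like cells, filled circles pool the 4 libraries collected at 4 h and open squares pool the 4 libraries collected at 0 or 24 h, bars are 95% exact Poisson intervals, and a missing point stands for 0 UMIs. Prss34 and Prss29 lie far apart between the hours in the remaining cells, at 373 against 10269 CPM and at 213 against 18500 CPM, whereas Cpa3 and Cma1 are highest in mast-cell-like cells at either hour.

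Prss34 and Prss29 are neighbours on rat chromosome 10, so the sequence before each start is shown to compare the 2 genes that moved together with Cpa3 and Cma1, which did not. The windows are the 250 bases upstream of each RefSeq start in the assembly GRCr8, written 5′ to 3′ on the strand of the gene, and capitals mark the letters AGATAA or TGATAA on either strand, a spelling of the GATA motif. RefSeq gives 2 starts for Prss29.
Prss34, chr10:14820197-14820446 (+): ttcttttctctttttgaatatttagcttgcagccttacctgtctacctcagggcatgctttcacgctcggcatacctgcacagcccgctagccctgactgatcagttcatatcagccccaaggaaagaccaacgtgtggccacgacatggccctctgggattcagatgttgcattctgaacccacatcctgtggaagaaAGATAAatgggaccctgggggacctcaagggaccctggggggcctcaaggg
Prss29, first start, chr10:14841558-14841807 (+): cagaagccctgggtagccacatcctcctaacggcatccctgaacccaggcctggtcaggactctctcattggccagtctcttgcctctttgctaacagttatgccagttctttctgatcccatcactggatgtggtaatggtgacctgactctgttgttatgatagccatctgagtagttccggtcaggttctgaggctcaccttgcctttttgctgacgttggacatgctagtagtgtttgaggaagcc
Prss29, second start, chr10:14842794-14843043 (+): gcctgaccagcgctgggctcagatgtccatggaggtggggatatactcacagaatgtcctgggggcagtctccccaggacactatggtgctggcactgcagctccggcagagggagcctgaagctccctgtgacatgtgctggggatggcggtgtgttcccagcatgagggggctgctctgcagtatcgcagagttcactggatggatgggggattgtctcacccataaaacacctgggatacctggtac
Cpa3, chr2:104673238-104673487 (-): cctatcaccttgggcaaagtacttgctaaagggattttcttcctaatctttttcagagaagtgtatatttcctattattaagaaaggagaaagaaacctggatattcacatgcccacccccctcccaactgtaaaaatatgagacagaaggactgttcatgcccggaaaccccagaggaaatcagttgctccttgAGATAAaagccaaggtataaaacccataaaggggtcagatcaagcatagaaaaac
Cma1, chr15:33390134-33390383 (-): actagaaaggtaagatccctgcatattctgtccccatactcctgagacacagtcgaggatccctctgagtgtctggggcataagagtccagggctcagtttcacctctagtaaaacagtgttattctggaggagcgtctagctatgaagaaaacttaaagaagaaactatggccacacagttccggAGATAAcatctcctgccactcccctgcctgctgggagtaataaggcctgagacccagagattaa
Promoters were found for 8 of the 9 genes. The letters occurred in the windows of Prss34, Cpa3, Cma1 and Fcer1a and not in those of Prss29, Mcpt8, Hdc or Il4, and 16.9% of the 33469 RefSeq windows of this length hold them. In Prss34 the match began 51 bases before the start, in Cpa3 55 bases before it and in Cma1 64 bases before it. A match of letters is a description and not a binding site.

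Prss34, which encodes a serine protease also named mast cell protease 11, was low in each of the 4 h libraries. Over all cells it stood at 60.7 CPM in TO 2d 0h, 116 CPM in TO 4d 24h, 68.2 CPM in TOE 2d 24h and 159 CPM in TOE 4d 24h. At 4 h it stood at 1.13 CPM in TO 2d 4h, 2.96 CPM in TO 4d 4h, 1.28 CPM in TOE 2d 4h and 1.26 CPM in TOE 4d 4h. The 2 sets of libraries did not overlap, and the geometric mean of the others was 61.3 times that of the 4 h libraries. In counts, 791 of the 45683 Prss34 UMIs came from the 4 h libraries.

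Prss29, the next protein-coding gene on the chromosome and also a serine protease gene, showed the same split. It stood at 105 CPM in TO 2d 0h, 199 CPM in TO 4d 24h, 157 CPM in TOE 2d 24h and 263 CPM in TOE 4d 24h. At 4 h the levels were 0.552 CPM in TO 2d 4h, 1.82 CPM in TO 4d 4h, 0.783 CPM in TOE 2d 4h and 0.660 CPM in TOE 4d 4h. The libraries again did not overlap, and the geometric means were 202-fold apart. Among the 14736 genes with at least 1000 UMIs, Prss29 and Prss34 had the largest differences between the hours, at -6.50 and -5.20 on the log2(CPM + 1) scale, followed by LOC120102096 at -4.06 and Ube2s-ps3, which was higher at 4 h, at 3.24. In all, 6 genes differed by 3 or more on this scale. With all libraries, Prss34 and Prss29 were the only ones of the 9 whose 4 h and other libraries did not overlap, against 20.1% of all genes (2961 of 14736). The number was 5 of the 9 without TO 4d 4h, against 21.5% of all genes, and 4 without TOE 2d 24h, against 25.3%. Without any other single library it was 2 or 3, against 21.7% (without TO 2d 0h) to 37.1% (without TOE 4d 24h) of all genes.

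The same split was present within the granule protease cluster, where CPM are relative to the UMIs of its own cells. The make-up of these cells, given above, differed between the hours. Prss34 stood at 6386 CPM in TO 2d 0h, 9637 CPM in TO 4d 24h, 8902 CPM in TOE 2d 24h and 9484 CPM in TOE 4d 24h. The 4 h levels were 258 CPM in TO 2d 4h, 317 CPM in TO 4d 4h, 323 CPM in TOE 2d 4h and 360 CPM in TOE 4d 4h. The geometric means differed by 27.2-fold, a ratio of 4 h to other of 0.0368. That ratio was 0.164 when the cells were taken not by cluster but as those with UMIs of at least 3 of the 9 genes, of which 77.8% to 90.9% lay in the cluster in the 4 h libraries and 29.6% to 32.2% in the others. Prss34 and Prss29 count towards the 3, so this choice of cells depends on the values compared. Prss29 ranged from 136 to 194 CPM at 4 h and from 10833 to 20524 CPM otherwise, an 88.8-fold difference of geometric means. In the sub-clusters of the 416 cells, Prss34 stood at 473 CPM at 4 h and at 12611 CPM otherwise, and in those of the 251 cells at 330 and 4518 CPM, with the libraries of an hour pooled. For Prss29 the levels were 349 and 22816 CPM in the former and 154 and 7901 CPM in the latter. The share of cells in the cluster was 0.494% to 1.12% at 4 h and 0.624% to 1.01% otherwise, with geometric means in a ratio of 0.809. The ratio of shares was lower with the 9 genes kept in the clustering and for cells with at least 3 of the 9 genes, as given in the section on processing.

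**Figure D2:**
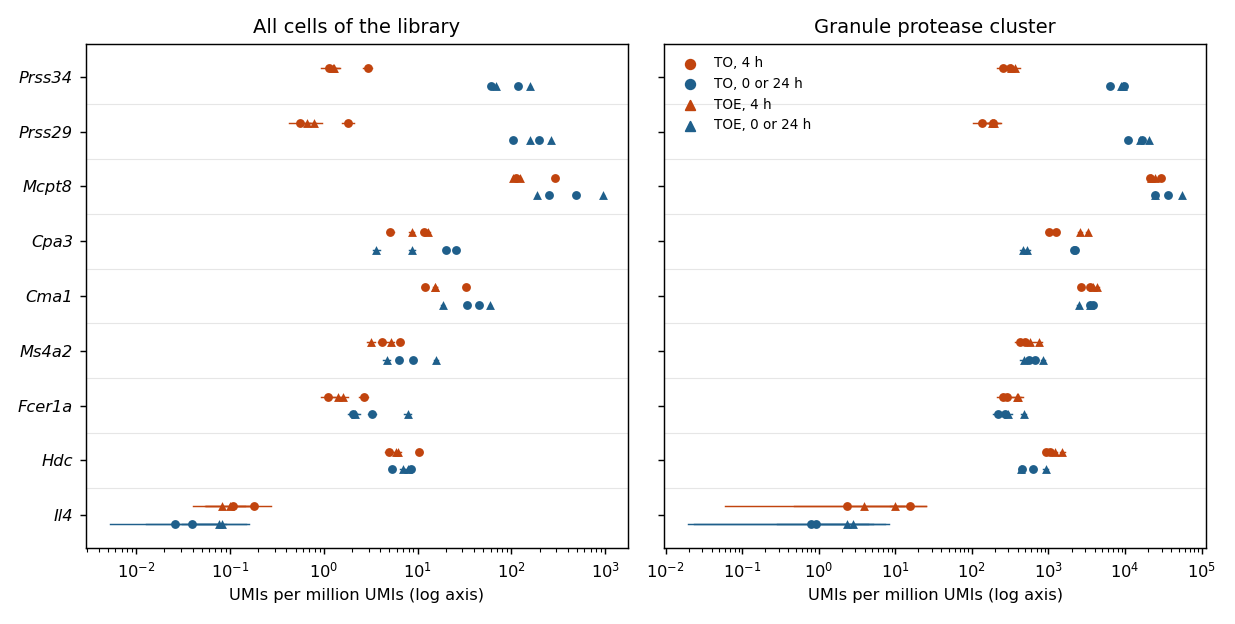
Levels of the 9 genes in each library, in CPM on log axes, over all cells (left) and in the granule protease cluster (right). Points are libraries, circles are TO and triangles TOE, orange marks the 4 h collections and blue those at 0 or 24 h, and bars are 95% exact Poisson intervals. Prss34 and Prss29 separate by hour in both panels, from 1.13 to 2.96 against 60.7 to 159 CPM and from 0.552 to 1.82 against 105 to 263 CPM over all cells, and Hdc is the only other gene that is apart, in the right panel (934 to 1513 against 443 to 915 CPM).

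The split extended over many of the remaining cells. Each cell with at least 1000 UMIs was thinned to 1000 UMIs, which left 264 of 313 remaining cells in the 4 h libraries and 341 of 354 in the others. A Prss34 UMI was then found in 16.7% to 30.6% of cells per library at 4 h and in 65.2% to 79.3% otherwise, and without thinning in 40.3% to 53.5% and in 74.4% to 87.1%. For Prss29 the thinned shares were 14.3% to 25.0% and 77.3% to 93.8%. For Mcpt8 they were 93.8% to 98.2% and 84.8% to 97.8%, and the 2 sets overlapped. In B-cell-like cells, which should lack these genes, the thinned share with a Prss34 UMI was at most 0.0183% per library at 4 h and 0.706% to 1.37% otherwise, at median depths of 3805 to 4315 and 3603 to 4033 UMIs. The Prss34 shares of the remaining cells at 4 h were thus above this background.

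**Figure D3:**
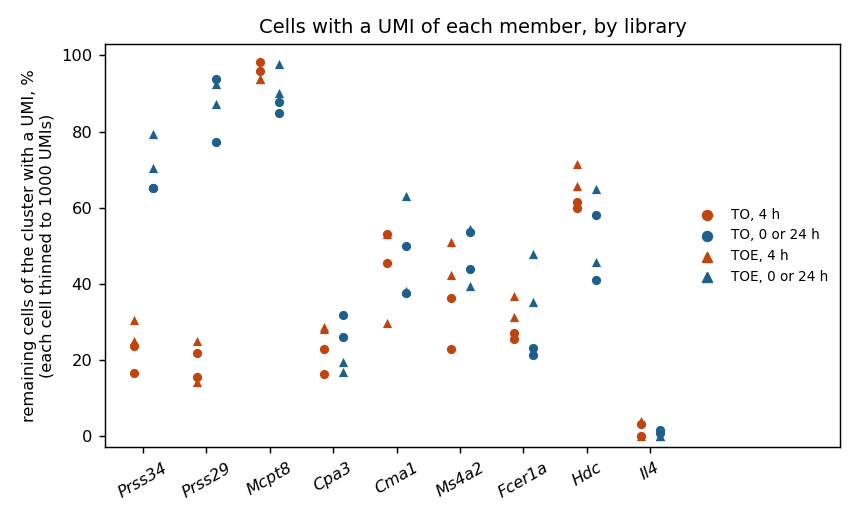
Percentage of the remaining cells of the cluster with at least 1 UMI of each gene, after thinning each cell to 1000 UMIs, 1 point per library. Circles are TO and triangles TOE, orange marks 4 h and blue 0 or 24 h. Prss34 (16.7% to 30.6% against 65.2% to 79.3%) and Prss29 (14.3% to 25.0% against 77.3% to 93.8%) are apart, and Cpa3, Cma1, Ms4a2, Fcer1a and Il4 overlap.

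The difference between the hours was larger for Prss29 than for Prss34. In the cluster, the ratio of Prss29 to Prss34 UMIs was 0.514 to 0.602 in the 4 h libraries and 1.66 to 2.31 in the others. The ratio of Mcpt8 to Prss34 UMIs was 67.1 to 91.8 at 4 h and 2.76 to 5.76 otherwise.

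The levels of the other genes shown around Prss34 and Prss29 overlapped between the hours in the cluster. Gnptg ranged from 7.04 to 19.8 CPM in the cluster at 4 h and from 10.2 to 24.1 CPM otherwise, and Tsr3 from 5.83 to 12.3 CPM and from 8.65 to 15.8 CPM. The tryptase genes Tpsab1 and Tpsb2, which follow Prss29, ranged from 45.1 to 901 CPM and from 61.5 to 607 CPM at 4 h, and from 10.6 to 322 CPM and from 5.81 to 220 CPM otherwise. Both tryptase genes were confined mainly to the mast-cell-like cells, at 2476 and 2025 CPM against 0.512 and 0.341 CPM in the remaining cells. Prss28l-ps1, a pseudogene between Prss34 and Prss29, had 0 UMIs. The cluster held few UMIs of Tsr3, with 22 at 4 h and 52 otherwise, and over all cells Tsr3 was lower at 4 h without overlap (8.50 to 12.1 against 13.5 to 18.5 CPM), whereas Unkl, in the same stretch, was higher without overlap (31.6 to 36.5 against 22.6 to 30.1 CPM).

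**Figure D4:**
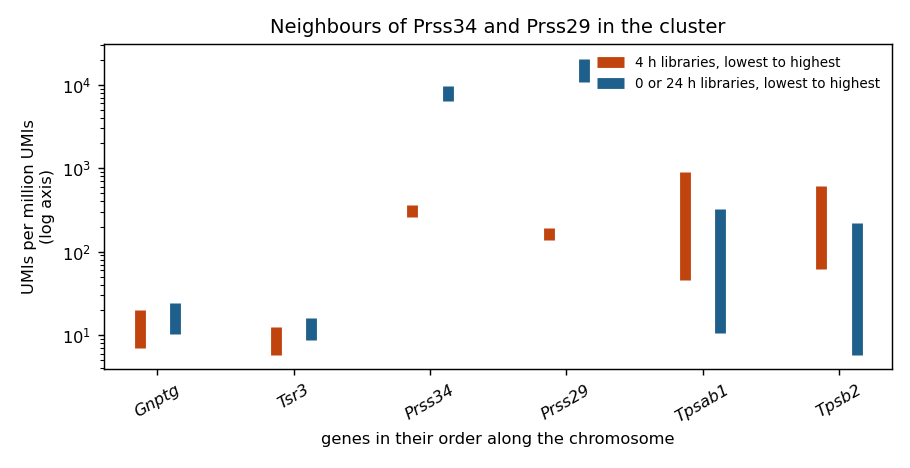
Levels in the granule protease cluster of Prss34, Prss29 and genes around them, in their order along chromosome 10, in CPM on a log axis. Bars run from the lowest to the highest of the 4 libraries collected at 4 h (orange) or of the 4 collected at 0 or 24 h (blue), and not every gene of the stretch is plotted. Bars of the 2 hours overlap for each gene plotted except Prss34 (258 to 360 against 6386 to 9637 CPM) and Prss29 (136 to 194 against 10833 to 20524 CPM).

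The genes most like Prss34 over the 8 libraries, by Pearson's r of log2(CPM + 1), were Chmp3 (0.989), Rab24 (0.988), Rwdd3 (0.985), Msantd7 (0.983) and Leng8 (0.982), with Prss29 at 0.998. These libraries fall into 2 sets by hour, and r was computed across both sets. Over the 29 cell clusters, which share libraries and differ in depth, the genes most like it were Prg2 (0.933), Prg3 (0.879), Epx (0.872), Mcpt10 (0.869) and Dnase2b (0.862), with Prss29 at 0.987.

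Among the other proteases, Mcpt8 is a basophil granule protease gene and had 276246 UMIs. It is a close relative of Mcpt9 and Mcpt10, between which reads may be split, so its level is uncertain. Over all cells it ranged from 104 to 295 CPM at 4 h and from 186 to 951 CPM otherwise, and the 2 sets overlapped. In the cluster it ranged from 21270 to 29064 CPM at 4 h and from 24588 to 54647 CPM otherwise, with TOE 4d 24h highest. Outside the cluster, dendritic-cell-like cells held 6.08% of its UMIs at 398 CPM, against 20.1 CPM in B-cell-like cells. Granulocyte-monocyte-progenitor-like cells held 2.71% at 230 CPM, and cells of clusters without a name held 0.981% at 261 CPM.

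Cma1 ranged from 2663 to 4333 CPM in the cluster at 4 h and from 2479 to 3770 CPM otherwise. Cpa3 ranged from 1018 to 3239 CPM at 4 h and from 469 to 2240 CPM otherwise, so both genes overlapped between the hours. Cpa3 was highest in TOE 2d 4h (3239 CPM), where 15 of 93 cells of the cluster were mast-cell-like, and lowest in TOE 2d 24h (469 CPM) and TOE 4d 24h (527 CPM), where 3 of 88 and 1 of 104 were. The order of the levels was not that of the shares throughout, since TO 2d 0h, with 29 of 105 cells, stood at 2171 CPM and TO 4d 24h, with 11 of 138, at 2240 CPM. The part of these cell numbers in the levels of the whole cluster was not tested. Within the remaining cells alone, Cpa3 ranged from 256 to 730 CPM at 4 h and from 428 to 1052 CPM otherwise.

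The receptor genes overlapped between the hours as well. Fcer1a, the α chain that binds IgE, ranged from 258 to 398 CPM in the cluster at 4 h and from 217 to 475 CPM otherwise. Ms4a2, the β chain that amplifies the signal, ranged from 429 to 748 CPM at 4 h and from 473 to 840 CPM otherwise. The γ chain gene Fcer1g, which is not among the 9 and is shared with other receptors, ranged from 768 to 1104 CPM and from 700 to 999 CPM. Ms4a2 was also detected outside the cluster, with 12.5% of its UMIs in neutrophil-like cells (6.64 CPM) and 9.73% in granulocyte-monocyte-progenitor-like cells (18.6 CPM), against 0.383 CPM in B-cell-like cells. Ms4a2 UMIs in the cluster made up 39.4% to 83.7% of the total per library.

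Hdc, the enzyme that makes histamine, was higher in the cluster at 4 h. Its levels were 934 CPM in TO 2d 4h, 1044 CPM in TO 4d 4h, 1203 CPM in TOE 2d 4h and 1513 CPM in TOE 4d 4h. In the others they were 452 CPM in TO 2d 0h, 636 CPM in TO 4d 24h, 915 CPM in TOE 2d 24h and 443 CPM in TOE 4d 24h. The 2 sets did not overlap, with the lowest 4 h library (934 CPM) just above the highest other (915 CPM), and the geometric means were 1.98-fold apart. In the remaining cells alone they overlapped, at 1002 to 1870 CPM and 441 to 1082 CPM, and over all cells the ratio of 4 h to other was 0.932. In the cluster, 3 of the 8 genes of the 9 that reached 200 UMIs did not overlap (Prss34, Prss29 and Hdc), against 24.4% of all 4829 genes that did so.

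Il4, the cytokine that basophils release on activation, was near the limit of detection. It had 82 UMIs in all, 30 of them in the cluster, and between 3 and 20 UMIs per library. Outside the cluster, 24 lay in clusters named from T and NK cell markers and 10 in B-cell-like cells. Of the clusters so named, those of 8429 and 6324 cells raised only 3 of 9 markers, and their leading genes included Rad51b or Hist1h3b. The cluster of 1057 cells raised 8 of 9, with Cd3e among its leading genes. How the 24 UMIs divided between these clusters is not given. In the cluster the 4 h libraries held 1, 15, 2 and 4 UMIs (TO 2d 4h, TO 4d 4h, TOE 2d 4h, TOE 4d 4h) and the others 8 UMIs in total. Pooled, Il4 stood at 9.48 CPM (95% exact Poisson interval 5.94 to 14.3) at 4 h and at 1.73 CPM (0.748 to 3.41) otherwise, but 15 of the 22 UMIs at 4 h came from TO 4d 4h. By library the levels overlapped, at 2.35 to 15.4 CPM and 0.786 to 2.84 CPM.

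Whether shock waves or the day changed these genes was tested over libraries, since no pair of conditions had replicates. In the fit of all 8 libraries with arm, day and collection at 4 h as terms, none of the 9 genes was called between TOE and TO or between day 4 and day 2 (edgeR quasi-likelihood test, Benjamini-Hochberg adjusted p from 0.977 to 0.997 for the arm and 1 for the day). The background was the same, with 0% of 21873 genes called in either comparison. At an unadjusted p under 0.05, 0 of the 9 genes passed for the arm and 5 for the day (Prss34, Prss29, Mcpt8, Cma1 and Fcer1a), beside 565 and 279 of all genes, and a DESeq2 Wald test called 0 and 4 of all genes and 0 of the 9. Day 4 over day 2 was 1.89-fold for Prss34, 1.77-fold for Prss29, 2.30-fold for Mcpt8, 1.84-fold for Cma1 and 1.95-fold for Fcer1a. The 95% intervals on the log2 scale ran from 0.31 to 1.52 for Prss34 and from 0.29 to 2.11 for Mcpt8. In the fit of the cluster, day 4 over day 2 was 1.28-fold for Prss34, 1.16-fold for Prss29, 1.59-fold for Mcpt8, 1.27-fold for Cma1 and 1.30-fold for Fcer1a. The share of cells in the cluster was 0.494% to 0.741% on day 2 and 0.548% to 1.12% on day 4, and its part in the differences over all cells was not tested.

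Within the granule protease cluster, 8 of the 9 genes reached the fit and none was called for arm or day, again with 0% of 8988 genes called (edgeR). Fcer1a had the smallest unadjusted p of the 8 for the arm. It was 1.5-fold higher in TOE (log2 difference 0.59, SE 0.16, edgeR adjusted p 0.963) and higher in TOE in 3 of 3 matched pairs. With the 3 pairs of equal day and hour as blocks in a fit of their 6 libraries, which leaves 2 residual degrees of freedom, 0 genes were called (edgeR), and Fcer1a again differed by 0.59 (SE 0.18, adjusted p 0.692). Its levels were 217 to 289 CPM in TO and 295 to 475 CPM in TOE, without overlap, which held for 1.37% of the 4829 genes with at least 200 UMIs in the cluster and for Fcer1a alone of the 8. Mcpt8 was 1.59-fold higher on day 4 (log2 difference 0.67, SE 0.17, edgeR adjusted p 0.905). At an unadjusted p under 0.05, Fcer1a passed for the arm, and Prss34, Mcpt8 and Fcer1a passed for the day, against 449 and 394 of all 8988 genes. The DESeq2 Wald test called 4 and 10 of all genes and 0 of the 8. For Prss34 the TOE to TO difference in the cluster was 0.24 on the log2 scale, with a 95% interval from -0.09 to 0.57.

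The matched pairs of TOE and TO are single libraries, and no single pair was tested. In the cluster, the ratio of TOE to TO for Prss34 was 1.25 in the 2d 4h pair (0.977 to 1.61, exact conditional interval at 95%), 1.14 in the 4d 4h pair (0.928 to 1.39) and 0.984 in the 4d 24h pair (0.960 to 1.01), so each interval held 1. Prss29 was 1.43 (1.02 to 2.01), 0.982 (0.741 to 1.29) and 0.957 (0.939 to 0.976). Fcer1a was 1.49 (1.18 to 1.90), 1.38 (1.13 to 1.68) and 1.77 (1.55 to 2.02). Cpa3 differed most, at 3.18, 2.01 and 0.235, in clusters whose mast-cell-like cells made up 13.7% (TO) and 16.1% (TOE) in the first pair, 5.84% and 10.96% in the second, and 7.97% and 0.962% in the last. Intervals cover counting error only.

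Over all cells, the shares of cells in the cluster are given beside the ratios, and their part in the ratios was not tested. At 4d 4h the intervals of 8 of the 9 genes lay below 1, from 0.353 for Mcpt8 to 0.746 for Cpa3, and Il4 held 1. The granule protease cluster held 137 of 12240 cells in TO 4d 4h (1.12%, exact Clopper-Pearson interval 0.941% to 1.32%) and 73 of 13328 in TOE 4d 4h (0.548%, 0.430% to 0.688%). At 2d 4h, with shares of 0.494% and 0.573%, 7 genes lay above 1 and 2 held it. At 4d 24h, with shares of 1.01% and 0.872%, 6 genes lay above 1, Cpa3 lay below it and 2 genes held it. Such counts were not made over all genes, and intervals of counting error alone are narrow for genes with many UMIs. These counts are therefore not read as particular to the 9 genes.

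**Figure D5:**
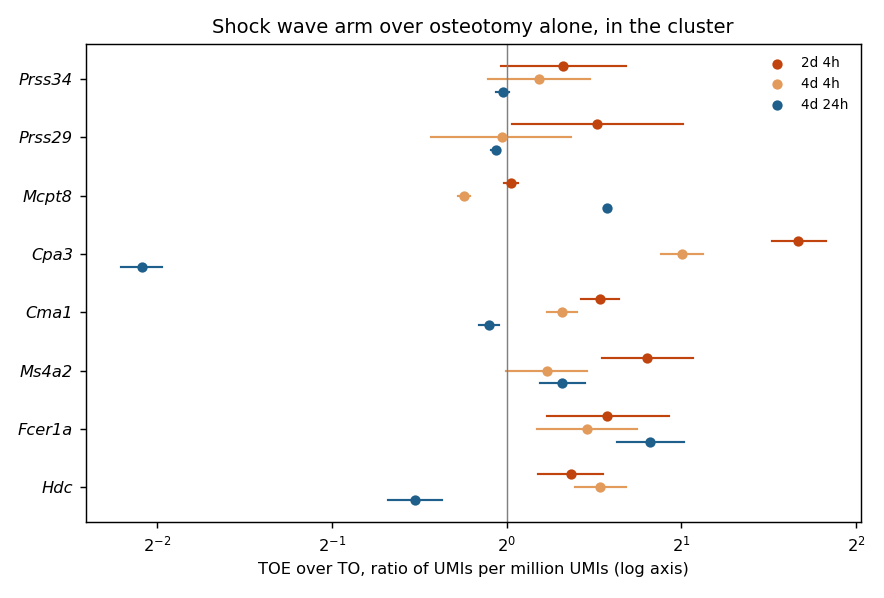
Ratio of TOE to TO in the granule protease cluster for the 3 matched pairs, on a log axis, with 95% exact conditional intervals that cover counting error only. Il4 is left out for its few UMIs. Prss34 holds 1 in each pair (1.25, 1.14 and 0.984), Fcer1a lies above 1 in each (1.49, 1.38 and 1.77), and Cpa3 runs from 3.18 to 0.235.

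The other genes of these cells were taken from lists of granule proteases, IgE receptor signalling, cytokine receptors, chemoattractant and inhibitory receptors, cytokines, histamine and lipid mediators, transcription factors, eosinophil markers, and genes that separate mast cells and basophils. In the cluster fit, 0 genes of any list rose or fell with arm or day (edgeR adjusted p under 0.05). At an unadjusted p under 0.05, 0 of 12 proteases passed for the arm and 2 for the day, and 1 of 14 genes of IgE receptor signalling passed for the arm and 0 for the day. For the day, 3 of 11 cytokine receptors, 3 of 9 chemoattractant and inhibitory receptors and 2 of 5 basophil genes passed, and for the arm 0, 1 and 1. The 2 basophil genes that passed for the day were Prss34 and Mcpt8, which are among the 9 and are already given above. Of all 8988 genes, 449 passed for the arm and 394 for the day. The medians of the protease and signalling lists for the arm were 0.07 and -0.08 on the log2 scale, beside 0.00 over all genes.

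Eosinophil markers gave the widest shift by arm, with a median of 1.25, beside 0.00 over all genes. At an unadjusted p under 0.05, 4 of 6 passed for the arm, beside 449 of all 8988 genes, and 2 of 6 for the day, beside 394. Prg3, a granule protein of eosinophils, was 2.06 higher in TOE on the log2 scale (SE 0.36, edgeR adjusted p 0.509). Eosinophil-like cells took part in these sums, at 3.65% to 7.25% of the cells of the cluster in TO libraries and 7.53% to 12.5% in TOE libraries. They held at most 0.394% of the UMIs of any of the 9 genes, but their own UMIs count in the total that CPM are relative to, and their part in the levels was not tested.

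By hour, 5 of the 14 genes of IgE receptor signalling that had at least 200 UMIs in the cluster were higher in each 4 h library than in any other (Lyn, Syk, Gab2, Plcg2 and Inpp5d) and 0 were lower. Inpp5d, the phosphatase SHIP that restrains this pathway, ranged from 813 to 922 CPM at 4 h and from 186 to 560 CPM otherwise. Lyn, the kinase that starts it, ranged from 473 to 676 CPM and from 226 to 426 CPM. Among 11 cytokine receptors, Csf2rb, Il1rl1 and Il1rap were higher without overlap, and among 11 transcription factors Gata2 (482 to 636 against 229 to 371 CPM) and Nfatc1. Of these 10 genes, 9 stood apart in the remaining cells, but only Lyn, Plcg2 and Gata2 did so in the 416 of them outside sub-clusters led by other genes, and 6 did in the other 251. Of all 4829 genes, 14.6%, 13.1% and 7.54% were higher in this way in these 3 sets of cells, and the 10 genes were taken for standing apart in the whole cluster, where 17.4% did. Slc18a2, of 9 genes of the histamine list, and Cd7, of 3 basophil genes outside the 9, were also higher without overlap in the whole cluster. They were not followed into these sets of cells. In the 416 cells Inpp5d ranged from 417 to 589 CPM at 4 h and from 185 to 523 CPM otherwise, and Il1rl1 from 562 to 692 CPM and from 278 to 612 CPM. Of 11 granule proteases outside the 9, 0 were higher and 0 lower in this way, with Mcpt10 at 28319 to 47740 CPM at 4 h and 26180 to 54070 CPM otherwise. Over all 4829 genes 840 were higher and 336 lower without overlap, and the median difference was 0.15 on the log2(CPM + 10) scale, beside 0.28 for the signalling list and 0.04 for the proteases.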

How the data were processed

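The authors deposited, for each of 8 libraries, a matrix of UMI counts (whole numbers without normalization). The submitters' processing notes name Cell Ranger 9.0.0, Seurat and the builds mRatBN7.2 and GRCh38, and the role of each build is not given in the sources used here. Barcodes under 200 detected genes or above 20% mitochondrial UMIs were dropped, and doublets with a Scrublet score above 0.25 were removed. Counts scaled to 10000 UMIs entered 30 components of 2000 variable genes without the 9 genes, and a graph of 15 neighbours was clustered by Leiden at resolution 1 (scanpy 1.11.5, igraph 0.11.9). A cluster was named from at least 3 markers raised 2-fold in at least 5% of its cells. The granule protease cluster was clustered again at resolution 0.5.

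UMIs were summed per library over all kept cells and over the cluster. Sums were fitted with edgeR 4.0.16 (TMM, filterByExpr, R 4.3.3) on collection at 4 h, day and arm, and p-values were adjusted over all genes by Benjamini-Hochberg with a threshold of 0.05. DESeq2 1.42.0 was an alternative. The study's own tests over cells were not used, since cells are not replicates. The design text gives 9 rats for 9 samples, but the labels do not say which rats entered a library. With 1 library per condition, p-values measure the spread between libraries of different conditions, which may be technical. Simulated counts with 200 changed genes gave, for the arm in the cluster sums (8698 genes), recovery of 43.9% at a log2 change of 1, 100% at 2 and 100% at 3, with 8 false calls. For the whole-library sums the shares were lower, with 32.3%, 68.7% and 93.9% for the arm (21593 genes) and 22.4%, 77.6% and 95.5% for the day (21566 genes), and 2 false calls in each. The simulation took the spread of a gene from the trend over all genes and held no difference between the hours. It therefore does not give the recovery for any of the 9 genes. For Cpa3 in the cluster, the 95% interval for the arm ran from -1.83 to 1.02 on the log2 scale.

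The 9 genes, the lists, the cell type markers and the tests were chosen with earlier results of these data known. Named genes were the 9, their protease relatives, genes of the lists with the most UMIs or past a test, the leading genes of clusters, and the 5 genes most like Prss34 over libraries and over clusters. Genes named for an unadjusted p or for libraries that did not overlap, and the joining of sub-clusters into the remaining cells, were chosen after their values were seen. Alternatives were other cell filters, doublets kept, other resolutions, other denominators, other normalizations and leaving out each library. Promoters are from RefSeq (GRCr8). Intervals are at 95%. A gene near Prss34 is not reported here.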

Additional observations from a re-analysis of the deposited data

Results flagged for a closer look

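Among the 4 libraries collected at 4 h, TO 4d 4h lay far above the other 3 over all cells for Prss34 (2.96 CPM) and for Mcpt8 (295 CPM), and TO 2d 4h lay far below the other 3 in the granule protease cluster for Prss29 (136 CPM). Dixon's rule at 95%, which sets 1 library against the others collected at the same hour and does not compare the hours, marked these 3 of 36 sets of 4 libraries, where 1.8 are expected by chance. TO 4d 4h also had the largest share of cells in the cluster (1.12%).

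The ratio of TOE to TO split by day or by hour for Cpa3, Cma1 and Hdc, with each counting interval off 1 and the pairs of 1 day or hour on the opposite side of 1 from the others, and the differences between pairs were not tested. For Cpa3 over all cells it was 2.51 in the pair 2d 4h, 0.746 in the pair 4d 4h and 0.340 in the pair 4d 24h. In the granule protease cluster it was 3.18, 2.01 and 0.235 for Cpa3, 1.45, 1.25 and 0.932 for Cma1, and 1.29, 1.45 and 0.696 for Hdc, in the same order of pairs. Other genes also lay on both sides of 1 without such a split. Over all cells, 7 of the 9 genes lay above 1 in the 2d 4h pair, 8 below it in the 4d 4h pair and 6 above it in the 4d 24h pair. In the cluster, Prss29 (1.43, 0.982 and 0.957) and Mcpt8 (1.02, 0.844 and 1.49) did so, with the interval of 1 pair holding 1 in each gene. Neither these counts nor the splits were compared with all genes, so they are not read as particular to the 9.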

How the results depend on the processing

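Each condition was 1 library, so levels rest on single libraries, and Il4 had only 82 UMIs. Replicate numbers pair nothing here, since each group holds 1 library. With the 3 TOE and TO pairs of equal day and hour as blocks, an alternative chosen after seeing the data, 0 of 21349 genes over all cells and 0 of 8167 in the cluster were called for the arm, and signs turned for Prss29 (-0.21), Il4 (-0.14) and, in the cluster, Cpa3 (0.26). The ratio of 4 h to other libraries for the share of cells in the cluster (0.809) ran from 0.673 to 0.884 without single libraries. It became 0.593 with the 9 genes kept among the variable genes and 0.266 for cells with UMIs of at least 3 of the 9 genes, Prss34 and Prss29 included. That ratio for Prss34 (0.0368) became 0.164 in cells with at least 3 of the 9 genes and ran from 0.0334 to 0.0392 without single libraries. The share of Prss34 UMIs (89.5%) became 93.3% and ran from 88.0% to 90.9%. The number of the 9 genes whose 4 h and other libraries did not overlap over all cells was 2 to 5 without single libraries, with 5 without TO 4d 4h and 4 without TOE 2d 24h, beside 21.5% to 37.1% of all genes. Without a filter on low counts, edgeR called 1 of the 9 genes for the day in the cluster, Mcpt8 (log2 0.69), with 113 genes in all and 76 for the arm. Leaving out single libraries gave 0 to 4 genes for the arm and 0 to 3 for the day in the cluster, 0 of them among the 9. With only the tested factor in the fit, the TOE to TO difference over all cells turned to 0.087 for Ms4a2, 0.26 for Prss34, -0.026 for Il4 and 0.19 for Mcpt8 (log2). For Prss29 it was -0.0016 without the filter, and for Cma1 in the cluster -0.022 in the remaining cells only, an alternative also chosen after seeing the data. Without single libraries, signs turned within these log2 ranges, none of them called. For the arm over all cells they were -0.44 to 0.28 (Ms4a2), -0.22 to 0.10 (Hdc), -0.28 to 0.21 (Prss34), -0.20 to 0.37 (Prss29), -0.14 to 0.60 (Il4), -0.11 to 0.59 (Fcer1a) and -0.61 to 0.24 (Mcpt8). For the day over all cells they were -0.026 to 1.08 (Cpa3) and -0.30 to 0.48 (Il4). In the cluster they were -1.08 to 0.23 (Cpa3), -0.037 to 0.20 (Cma1) and -0.11 to 0.24 (Mcpt8) for the arm, and -0.51 to 0.69 (Cpa3) and -0.12 to 0.32 (Hdc) for the day. The cause of these changes was not tested.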

Other observations

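Other granule protease genes divided between the sets of cells of the cluster as well, and none of these differences was tested, since the cells were grouped by expression. Mcpt9 stood at 15755 CPM in the remaining and 691 CPM in mast-cell-like cells, and Mcpt10 at 46548 and 1648 CPM. Mcpt2, a chymase gene of mucosal mast cells, stood at 6719 CPM in mast-cell-like cells, where Mcpt1l1 stood at 20192 CPM and the stem cell factor receptor gene Kit at 336 CPM, against 14.2 CPM for Kit in the remaining cells. Within the remaining cells Mcpt2 ranged from 101 to 356 CPM in the 4 h libraries and from 382 to 1094 CPM in the others, without overlap. In the 416 of them outside sub-clusters led by other genes it overlapped, with 39.3 to 601 CPM at 4 h and 126 to 1000.2 CPM otherwise.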
